A study of Homo sapiens with 12 samples.

Results

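Genes of 8 transcription factors that set or shift the identity of prostate epithelial cells, FOXA1, GATA2, TBX3, GRHL2, SOX4, SOX9, MAF and MITF, were followed by RNA sequencing when GALNT7 was lowered or raised in prostate cancer cells. They were chosen by name, with earlier results of these data known, and all 8 members were found among the 59424 genes of the deposited tables. CWR22RV1 cells, a prostate carcinoma line, carried a lentivirus with either a control hairpin (shControl) or hairpin RNA that silences GALNT7 (GALNT7 KD), the number of hairpins not being clear from the labels. DU145 cells, a prostate carcinoma line derived from a metastasis, carried a lentivirus with a control insert (OE control) or the coding sequence of GALNT7 (GALNT7 OE). Each of the 4 groups was a stable transduced line with 3 biological replicates, made into polyadenylated, strand-specific libraries, and the comparison asks which genes respond to the level of GALNT7, a Golgi enzyme that adds GalNAc sugars to proteins. Whether the replicates were separate transductions or cultures was not stated, so the p values measure the spread between these samples, which may be technical.

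Lineage factors bind the enhancers of a tissue and decide which genes an outside signal can reach. In the luminal cells of the prostate, FOXA1 and GATA2 open chromatin at prostate enhancers, and GRHL2 maintains epithelial junction genes. SOX4, SOX9, TBX3, MAF and MITF are used in several embryonic lineages, and a change in such factors is one of the ways in which a carcinoma cell can alter its identity, a property called plasticity.

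The normalised count used below is the number of reads on a gene divided by a size factor for its library. The recovered depth was 18364512 to 22264533 reads in the 6 CWR22RV1 libraries and 21628718 to 24356910 in the 6 DU145 libraries, and Pearson's r between replicates of a group was 0.965 to 0.973 across genes. The luminal markers KRT8 and KRT18 were high in both cell lines, while HOXB13 and KLK3 were high only in CWR22RV1 cells, with 0 to 11.2 normalised counts in DU145 cells. GALNT7 followed its labels, falling from 999 ± 122 normalised counts (SD, n=3) under shControl to 461 ± 53.7 under GALNT7 KD. It had 964 ± 75.8 in OE control and 2181 ± 176 in GALNT7 OE cells. The cell lines were tabled and scaled separately, so each had its own limma fit of log2(normalised count + 1). A gene was tested if its mean was at least 5, and p values were adjusted over all genes tested by the Benjamini-Hochberg method with a threshold of 0.05. Markers of cells other than luminal epithelium moved with the groups in a few genes. The summed level of 5 fibroblast markers was 294 to 361 normalised counts across shControl libraries against 707 to 777 across GALNT7 KD libraries, led by LUM. It was 304 to 430 in OE control and 73.0 to 165 in GALNT7 OE, led by COL1A1. Of these 5, only LUM passed the threshold in knockdown. COL3A1 had the other order there, with means of 23.7 in shControl and 9.14 in GALNT7 KD. The 4 basal markers summed to 133 to 169 in shControl and 266 to 340 in GALNT7 KD, nearly all of it KRT15, with KRT5 at 0. The 5 neuroendocrine markers summed to 630 to 917 in shControl, 419 to 567 in GALNT7 KD, 1544 to 1783 in OE control and 1019 to 1170 in GALNT7 OE, most of it ENO2, with CHGA at or near 0. SYP, a vesicle protein on the same list, had the other order in DU145 cells, at 12.3 to 22.9 in OE control and 34.6 to 47.1 in GALNT7 OE. The 5 leucocyte markers summed to 2646 to 2843 in OE control and 1016 to 1150 in GALNT7 OE, nearly all of it CD68, while PTPRC and CD3E were at or near 0. Their part in the results below was not tested. The added 1 shrinks the fold change of genes with few reads, and RNA from bulk cultures cannot tell fewer expressing cells from less RNA per cell.

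After GALNT7 knockdown in CWR22RV1 cells, all 8 members were tested and 5 passed the threshold. MAF and SOX4 were higher, and TBX3, SOX9 and FOXA1 were lower. Across the genome 9.06% of 17906 genes passed, 5.28% higher and 3.79% lower. After GALNT7 overexpression in DU145 cells, 7 members were tested and 5 passed, with GATA2 and TBX3 higher and SOX4, SOX9 and MITF lower. Here 43.5% of 18705 genes passed, 22.9% higher and 20.5% lower. The members were chosen with earlier results of these data known, so that these counts are a description. The median log2 fold change of the tested members was 0.036 in knockdown and -0.061 in overexpression, beside -0.0063 and -0.011 over all genes tested. The groups did not overlap for 6 members in knockdown, against 32.5% of all genes, and for 5 in overexpression, against 55.3%. For a single gene, the two-sided exact permutation test of 3 libraries against 3 cannot go below p=0.1, which was reached by each of these.

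**Figure D1:**
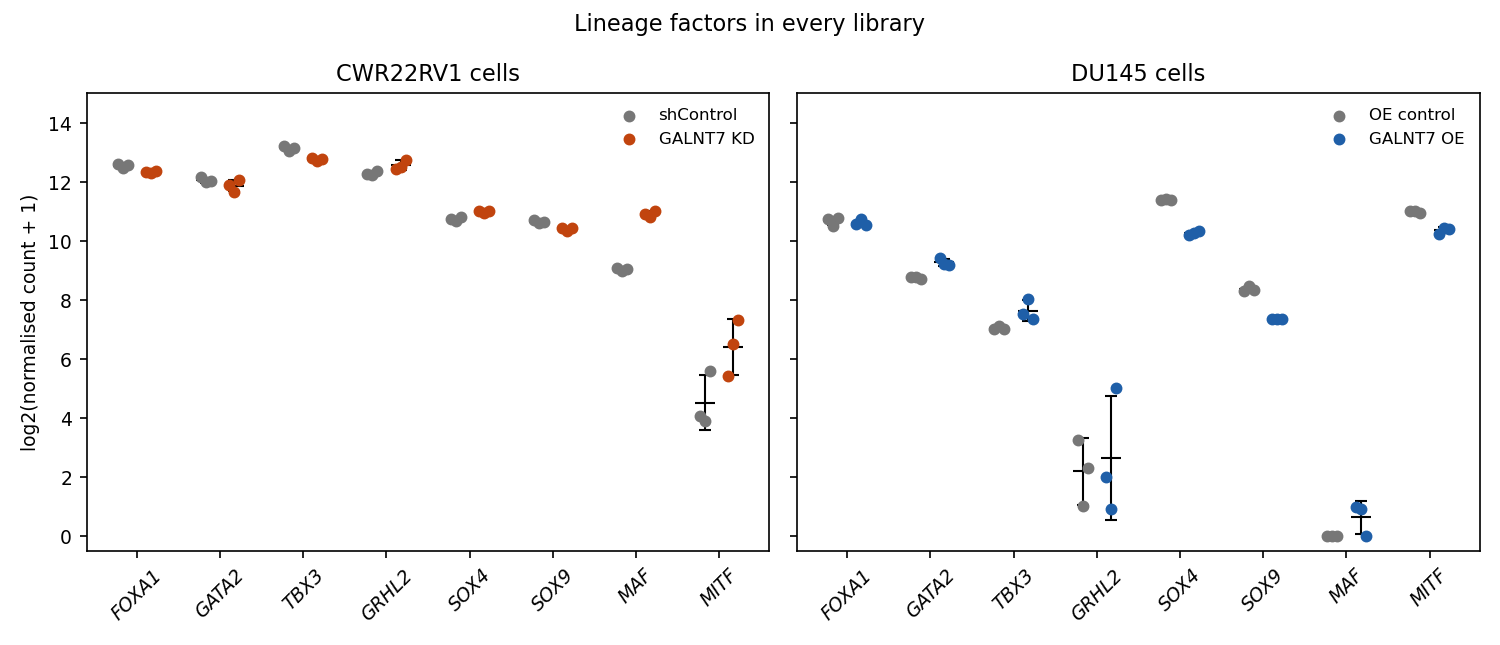
Each point is a library, with log2(normalised count + 1) on the vertical axis and the mean and SD of the 3 libraries of a group as black bars; grey is the control, orange GALNT7 KD and blue GALNT7 OE. MAF separates fully in CWR22RV1 cells and has at most 1 read in a DU145 library, while SOX4, SOX9 and MITF separate downwards in DU145 cells.

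Among the members past the threshold, the largest change was that of MAF (ENSG00000178573), a basic leucine zipper factor known from lens and lymphocyte differentiation, in GALNT7 knockdown. The gene spans chr16:79585843-79600714 of GRCh38 (minus strand), and no other annotated gene overlaps it. It had 549, 513 and 537 normalised counts in the shControl libraries and 1913, 1788 and 2057 in the GALNT7 KD libraries. Every knockdown library was above every control library. MAF rose 3.60-fold, or by 1.85 ± 0.0762 (± SE) on the log2 scale (limma adjusted p=1.0e-04). It passed under all 18 alternatives, with values from 1.79 to 1.90. MAFTRR, a non-coding RNA transcribed near MAF, rose as well, from 20.1 to 54.2 normalised counts (log2 fold change 1.40, limma adjusted p=0.046), although this call was lost with any of the 6 libraries left out (adjusted p up to 0.12). In DU145 cells MAF was at 0 reads in all 3 OE control libraries and at 1, 1 and 0 reads in GALNT7 OE. A count of 0 allows up to 3 reads per library, so that no fold change is given there, and this limit covers counting error only.

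The bases before the MAF start are shown because its change was the largest past the threshold. They were taken from RefSeq on GRCh38.p14, read along the gene's own strand and ending 1 base before the start. The window is chr16:79600738-79600987 on the minus strand. Capitals mark every match to TATAAA (the TATA box), CCAAT (the CCAAT box), GGGCGG (a GC box), CACGTG (an E-box), TGACTCA (an AP-1 element), GTAAACA (a forkhead element) or TGACGTCA on either strand, the last of which, the cyclic AMP response element, was added to the search after the windows had been read.
MAF: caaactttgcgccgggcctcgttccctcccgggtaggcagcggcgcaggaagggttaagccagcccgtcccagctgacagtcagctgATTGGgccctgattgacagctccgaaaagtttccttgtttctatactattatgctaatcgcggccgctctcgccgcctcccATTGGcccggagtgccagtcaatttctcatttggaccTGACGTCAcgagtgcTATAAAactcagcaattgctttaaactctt
A TATAAA lies 30 bases before the start, TGACGTCA 45 bases before it, and CCAAT 82 and 163 bases before it on the opposite strand, where it reads ATTGG. Among 35116 RefSeq windows of 250 bases, 10.7% hold TATAAA, 32.0% CCAAT, 42.6% GGGCGG, 6.34% CACGTG, 4.20% TGACTCA, 2.98% GTAAACA and 1.65% TGACGTCA. These matches describe the letters only, and factor binding was not measured.

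The opposite end of the scale was taken by SOX4 and SOX9 in GALNT7 overexpression, where both fell to about the same extent. SOX4 (ENSG00000124766, chr6:21592768-21598619, plus strand) belongs to the SOXC group of HMG-box factors, which act in progenitor cells and are often raised in carcinomas. Its normalised counts were 2663, 2759 and 2659 in OE control and 1192, 1235 and 1297.5 in GALNT7 OE libraries, without overlap. This is a log2 fold change of -1.12 ± 0.0544 (SE; limma adjusted p=1.4e-05). In knockdown SOX4 had 1706, 1629 and 1787 normalised counts in shControl and 2053, 1981 and 2055 in GALNT7 KD libraries, again without overlap. The rise was small (log2 fold change 0.25 ± 0.0581 (SE), limma adjusted p=0.045). It lost the threshold with any of the 6 libraries left out, at adjusted p from 0.078 to 0.14. CASC15, a non-coding RNA gene beside SOX4, fell with it in overexpression, from 54.7 to 10.1 normalised counts (log2 fold change -2.38, limma adjusted p=8.6e-04). SOX4 was one of the 2 members past the threshold in both comparisons with opposite signs.

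SOX9 (ENSG00000125398, chr17:72121020-72126420, plus strand) is an SOXE factor that directs cartilage formation and also marks epithelial progenitors of the prostate. Its OE control libraries had 314, 355 and 322 normalised counts and the GALNT7 OE libraries 164, 165 and 165. Every GALNT7 OE library was below every control, and SOX9 fell by 0.997 ± 0.0954 (SE) on the log2 scale (limma adjusted p=2.5e-04). In CWR22RV1 cells it had 1663, 1583 and 1600.5 normalised counts in shControl and 1389, 1301 and 1383 in GALNT7 KD. SOX9 therefore moved in the same direction when GALNT7 was lowered and when it was raised, the only member to pass the threshold both ways with 1 sign. GALNT7 was lowered only in CWR22RV1 cells and raised only in DU145 cells. For SOX9, SOX4 and TBX3 alike, the direction of the GALNT7 change thus cannot be told apart from the cell line. The knockdown change was -0.25 ± 0.0588 (SE; limma adjusted p=0.047) and missed the threshold with any of the 6 libraries left out (adjusted p 0.067 to 0.16). SOX9-AS1, on the opposite strand, had 6.68 to 23.5 normalised counts in OE control and 1.00 to 13.9 in GALNT7 OE and passed in neither comparison.

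TBX3 (ENSG00000135111), a T-box repressor that acts in mammary and limb development, was among the highest members in CWR22RV1 cells and low in DU145 cells. CWR22RV1 cells had 9624, 8582 and 9138 normalised counts in shControl and 7139, 6740 and 6968 in GALNT7 KD, with no overlap. TBX3 fell by 0.39 ± 0.0520 (SE) on the log2 scale (limma adjusted p=0.0084). The gene spans chr12:114670254-114684164 of GRCh38 (minus strand). The 922 tested genes of chromosome 12 had a median log2 fold change of -0.28 in the same comparison, with 202 past the threshold downwards and 19 upwards. With every chromosome centred on its own median, TBX3 was at -0.12 (limma adjusted p=0.24). The fall of TBX3 and the shift of its chromosome cannot be told apart here, since both follow the same 6 libraries. In DU145 cells TBX3 was low, at 130, 137 and 129 normalised counts in OE control and 183, 263 and 163 in GALNT7 OE. All 3 GALNT7 OE libraries were higher, by a log2 fold change of 0.59 ± 0.188 (SE; limma adjusted p=0.041). Of the 6 fits with a library left out, only the one without GALNT7 OE replicate 3 kept the threshold (adjusted p=0.025), and the others gave adjusted p from 0.063 to 0.099. Without GALNT7 OE replicate 2 the log2 fold change was 0.39 (limma adjusted p=0.069).

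**Figure D2:**
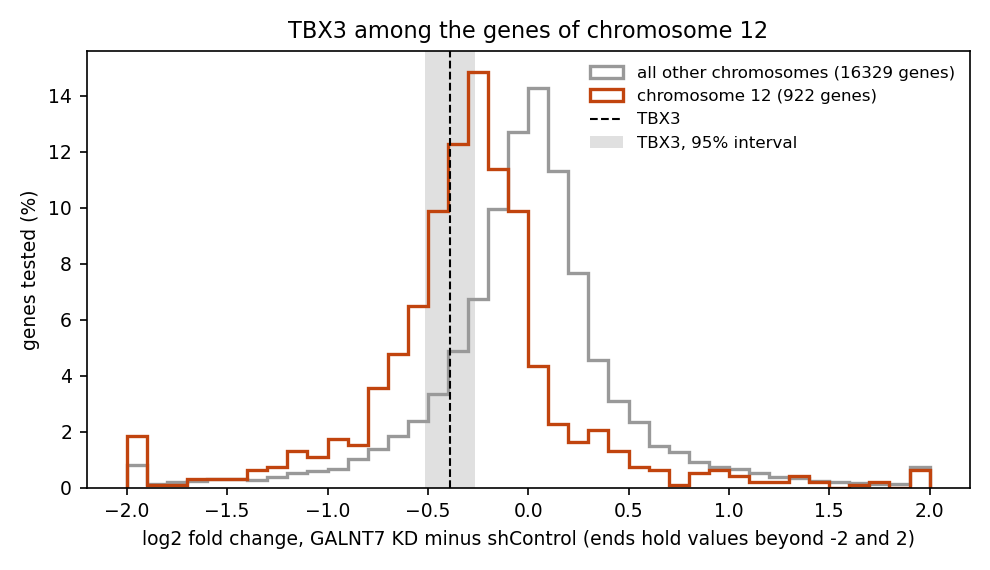
The horizontal axis is the log2 fold change of GALNT7 KD against shControl in bins of equal width and the vertical axis the percentage of tested genes, for the 922 genes of chromosome 12 (orange) and all genes on the other chromosomes (grey). The dashed line is TBX3 at -0.39 and the grey band its 95% interval of -0.51 to -0.27, inside the bulk of the chromosome 12 genes.

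FOXA1 and GATA2, the factors that open chromatin at prostate enhancers, changed little in CWR22RV1 cells. FOXA1 (ENSG00000129514), a forkhead factor encoded at chr14:37589984-37596059 (minus strand), had 6296, 5697 and 6153 normalised counts in shControl and 5234, 5029.5 and 5265 in GALNT7 KD. The groups did not overlap, and FOXA1 fell by 0.22 ± 0.0511 (SE) on the log2 scale (limma adjusted p=0.043). The call held without shControl replicate 2 (adjusted p=0.042) and was lost without any of the other 5 libraries (adjusted p 0.068 to 0.14). In DU145 cells FOXA1 had 1741, 1473 and 1748 normalised counts in OE control and 1534, 1712 and 1503 in GALNT7 OE, which overlapped. The log2 fold change there was -0.061, with a 95% interval of -0.27 to 0.15 (limma adjusted p=0.62), so that a change of FOXA1 within those bounds is not excluded. TTC6, on the opposite strand and overlapping FOXA1, did not pass in either comparison.

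GATA2 (ENSG00000179348), a zinc finger factor encoded at chr3:128479427-128493185 (minus strand), did not pass in knockdown. Its shControl libraries had 4589, 4061 and 4171 normalised counts and the GALNT7 KD libraries 3855, 3272 and 4263, with GALNT7 KD replicate 3 inside the control range. The log2 fold change was -0.18, with a 95% interval of -0.42 to 0.066 (limma adjusted p=0.32). In DU145 cells GATA2 had 439, 442 and 424 normalised counts in OE control and 687, 593 and 583 in GALNT7 OE. All overexpression libraries were above all controls, and GATA2 rose by a log2 fold change of 0.51 ± 0.0883 (SE; limma adjusted p=0.0036), a call that every alternative kept. GATA2-AS1, which overlaps GATA2 on the opposite strand, had 138 to 156 normalised counts in OE control and 141 to 173 in GALNT7 OE libraries, which overlapped. Whether the counting used strand was not stated, so that reads of such pairs may not have been told apart. The window before the farther of the RefSeq starts of GATA2, chr3:128493202-128493451 on the minus strand, is shown beside that of MAF as the member that rose in DU145 cells under every alternative, with the same motifs in capitals.
GATA2: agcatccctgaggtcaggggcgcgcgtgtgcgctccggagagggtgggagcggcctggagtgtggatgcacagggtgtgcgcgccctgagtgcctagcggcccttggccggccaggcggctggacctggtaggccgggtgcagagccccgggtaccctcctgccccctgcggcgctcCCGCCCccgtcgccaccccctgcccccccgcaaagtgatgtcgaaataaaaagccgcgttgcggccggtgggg
It has 72.8% G and C and holds GGGCGG 73 bases before the start on the opposite strand, but neither TATAAA nor TGACGTCA, whereas the MAF window has 54.4% G and C.

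**Figure D3:**
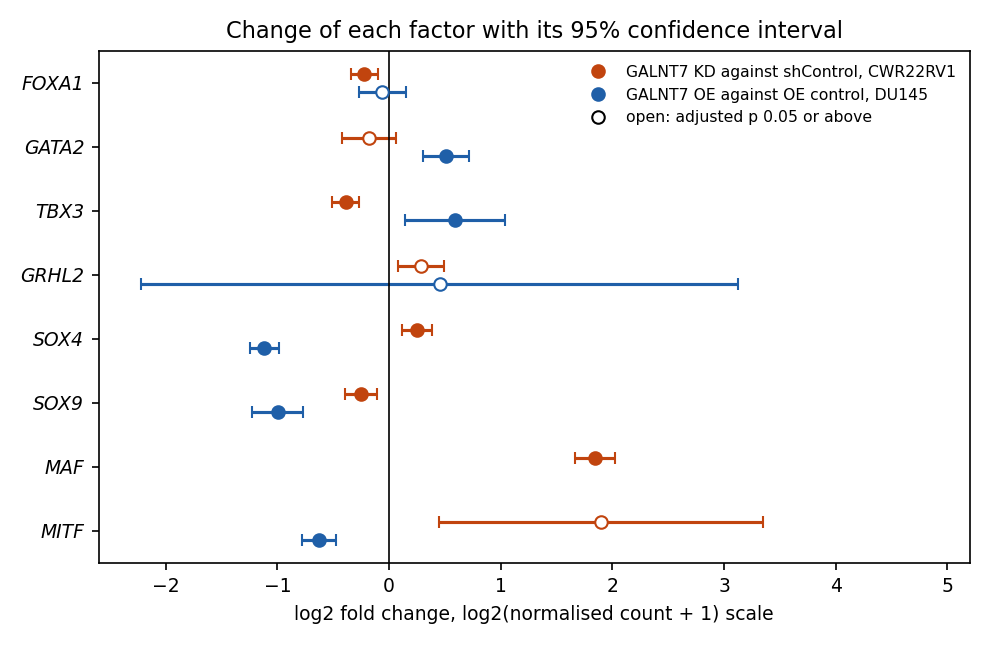
The horizontal axis is the log2 fold change on the log2(normalised count + 1) scale with its 95% confidence interval from limma, for GALNT7 KD against shControl (orange) and GALNT7 OE against OE control (blue). Open circles did not pass an adjusted p of 0.05; MAF stands at 1.85 in knockdown, SOX4 and SOX9 lie near each other at -1.12 and -0.997 in overexpression, and the interval of GRHL2 in DU145 cells spans -2.22 to 3.13.

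MITF (ENSG00000187098), a basic helix-loop-helix factor that specifies melanocytes and in other cells controls lysosomal genes, had the reverse distribution between the cell lines. Its gene spans chr3:69739435-69968337 (plus strand). In DU145 cells MITF had 2074, 2063 and 1999 normalised counts in OE control and 1223, 1385 and 1356 in GALNT7 OE, without overlap. It fell by 0.63 ± 0.0643 (SE) on the log2 scale (limma adjusted p=3.2e-04), and this passed under every alternative. CWR22RV1 cells had only 15.9, 14.1 and 47.6 normalised counts in shControl and 42.5, 89.6 and 161 in GALNT7 KD. The groups overlapped, since shControl replicate 3 was above GALNT7 KD replicate 1. The log2 fold change of 1.89 thus had a wide 95% interval of 0.44 to 3.35 and did not pass (limma adjusted p=0.11), though it did with DESeq2 on the recovered reads (adjusted p=0.032) and with a replicate block in limma (adjusted p=0.040). It ranged from 1.44 to 2.43 with a library left out.

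The deposited values sum all MITF transcripts, so they do not tell which of its starts was used. RefSeq places starts of MITF at several positions, and the windows before the outermost (chr3:69739214-69739434) and the innermost (chr3:69936342-69936586, the start used in melanocytes), both on the plus strand, are shown to compare them. Bases annotated as exon in GENCODE were left out at their 3′ ends, and capitals mark the same motifs.
MITF outermost start: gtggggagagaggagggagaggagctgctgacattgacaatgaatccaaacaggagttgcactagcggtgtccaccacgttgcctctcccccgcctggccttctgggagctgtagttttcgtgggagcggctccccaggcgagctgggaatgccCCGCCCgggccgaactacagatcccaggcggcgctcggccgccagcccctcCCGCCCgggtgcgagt
MITF innermost start: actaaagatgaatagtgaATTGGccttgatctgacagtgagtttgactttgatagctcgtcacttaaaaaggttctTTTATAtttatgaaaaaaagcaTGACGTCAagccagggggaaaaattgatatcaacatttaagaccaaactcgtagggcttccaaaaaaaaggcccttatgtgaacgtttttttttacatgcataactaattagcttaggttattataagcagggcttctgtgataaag
The outermost window has 66.5% G and C and 16 CpG pairs, with GGGCGG on the opposite strand 96 and 45 bases before the start. The innermost has 34.7% G and C and 4 CpG pairs, with TGACGTCA 152 bases before the start and TATAAA and CCAAT on the opposite strand. TGACGTCA was present before MAF and before the innermost MITF start. Since it was added to the search after these windows had been read, this is a description only. Of 11 pigment and lysosome genes known as MITF targets, 5 could be tested in knockdown, where 1 passed, beside 9.06% of all genes tested. In overexpression 4 were tested and 2 passed, beside 43.5% of all genes. GPNMB, on the same list, was tested in both and passed in neither (limma adjusted p=0.88 and 0.93). RAB27A, which moves melanosomes and secretory vesicles, rose in knockdown (log2 fold change 0.58, limma adjusted p=0.034, lost in 5 of 6 fits with a library left out at adjusted p up to 0.11, all but that without GALNT7 KD replicate 2) and fell in overexpression (-0.77, limma adjusted p=0.0010). CTSK, a lysosomal protease, fell in overexpression by 0.72 on the log2 scale (limma adjusted p=0.0096). Of the 3 melanocyte markers, TYR and MLANA had 0 to 1.93 normalised counts in every library, while PMEL, a melanosome protein, had 19.2 to 71.5 in CWR22RV1 cells, 43.9 to 111 in OE control and 34.2 to 47.1 in GALNT7 OE. PMEL did not pass in either comparison (limma adjusted p=0.73 in knockdown and 0.075 in overexpression).

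GRHL2 (ENSG00000083307), a grainyhead factor encoded at chr8:101492432-101669726 (plus strand), was high in CWR22RV1 cells and had few reads in DU145 cells. It had 4925, 4786 and 5282 normalised counts in shControl and 5621, 5807 and 6936 in GALNT7 KD. The groups did not overlap, but the log2 fold change of 0.29 ± 0.0867 (SE) missed the threshold (limma adjusted p=0.089). DESeq2 on the recovered reads gave an adjusted p of 0.020. In DU145 cells GRHL2 had 8.59, 1.02 and 4.03 normalised counts in OE control and 3.01, 0.924 and 31.5 in GALNT7 OE. A single library, GALNT7 OE replicate 3, stood above the others, and the log2 fold change of 0.45 did not pass (limma adjusted p=0.77). Left-out fits ranged from -0.14 without OE control replicate 2 to 1.31 without GALNT7 OE replicate 2, and without GALNT7 OE replicate 3 the gene was below the minimum level for a test. Of 11 epithelial genes known as GRHL2 targets, all were tested in knockdown, and CLDN4, EPCAM and ERBB3 were lower while none was higher. Over all genes tested in knockdown, 3.79% were lower and 5.28% higher. CLDN4, a tight junction protein, fell by 0.90 on the log2 scale (limma adjusted p=0.0067). EPCAM, an adhesion molecule, fell by 0.71 (limma adjusted p=0.013), with an adjusted p of 0.054 without shControl replicate 1. ERBB3, a receptor of the EGF receptor family whose gene lies on chromosome 12, fell by 0.40 (limma adjusted p=0.032), which was lost without GALNT7 KD replicate 2 or any shControl library (adjusted p up to 0.10) and with chromosomes centred. In DU145 cells 9 were tested, and 3 rose and 4 fell, beside 22.9% and 20.5% of all genes tested. EPCAM, lower in knockdown, rose here (log2 fold change 0.62, limma adjusted p=0.0016). ESRP1, an epithelial splicing factor, went from 15.9 to 87.7 normalised counts (log2 fold change 2.36, limma adjusted p=3.9e-04) and its relative ESRP2 from 348 to 613 (0.81, limma adjusted p=0.0014). CLDN4 fell here too (-1.12, limma adjusted p=1.6e-04). SPINT1, an inhibitor of membrane proteases, fell from 1548 to 448 (-1.79, limma adjusted p=1.4e-05).

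Per kilobase of exon and library depth (RPKM), the order of the members differed between the cell lines. In shControl cells TBX3 had 77.7 ± 4.35 RPKM and FOXA1 77.1 ± 3.91 (SD, n=3), which overlapped between libraries. Below them came GATA2 with 48.6 ± 3.11, GRHL2 with 41.9 ± 2.16, SOX9 with 20.8 ± 0.518, SOX4 with 14.8 ± 0.688, MAF with 3.88 ± 0.129 and MITF with 0.183 ± 0.133 RPKM, each apart from its neighbour in all libraries. In GALNT7 KD cells FOXA1 was first with 66.1 ± 1.47 RPKM, and MAF, with at least 13.1 RPKM in each library, came close to SOX4 and SOX9, which overlapped at 17.6 ± 0.318 and 17.6 ± 0.580. In OE control cells the order began with SOX4 at 20.8 ± 0.489, FOXA1 at 18.7 ± 1.73 and MITF at 12.8 ± 0.260 RPKM. GATA2 followed at 4.40 ± 0.101, SOX9 at 3.79 ± 0.257 and TBX3 at 1.00 ± 0.0361. GALNT7 OE cells had FOXA1 first at 17.6 ± 1.32 and then SOX4 at 9.39 ± 0.337, with SOX9 and TBX3 overlapping at 1.86 ± 0.0151 and 1.51 ± 0.402 RPKM. These levels rest on exon lengths from GENCODE, since transcript lengths used by the authors were not given, and levels of the cell lines were not tested against each other.

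**Figure D4:**
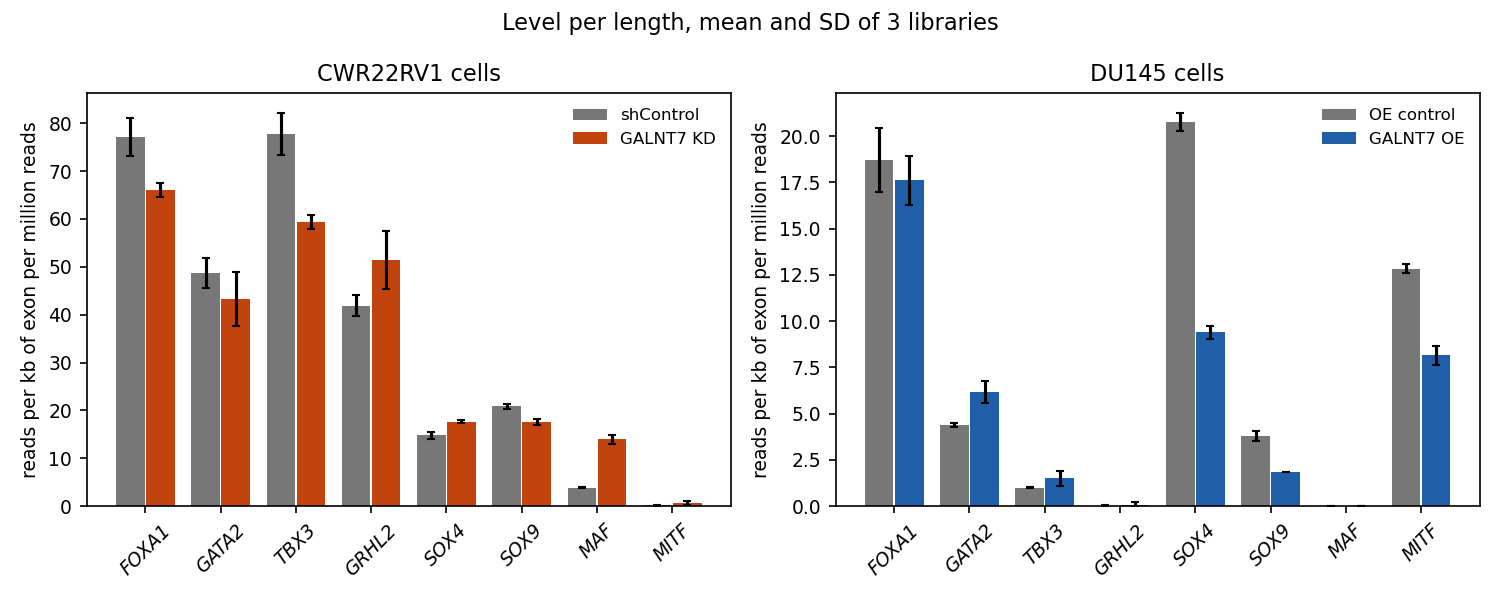
Bars are the mean and error bars the SD of 3 libraries in RPKM, from 0, for the control (grey), GALNT7 KD (orange) and GALNT7 OE (blue). The vertical scales of the panels differ: TBX3, FOXA1, GATA2 and GRHL2 lead in CWR22RV1 cells, and SOX4, FOXA1 and MITF in DU145 cells.

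Paralogs were set beside each member to describe how their families moved. Of all genes tested, 9.06% passed in knockdown and 43.5% in overexpression. GATA3, which acts in luminal cells of other glands, went from 38.9 to 4.93 normalised counts in overexpression (log2 fold change -2.74, limma adjusted p=0.0015) and GATA6 from 186 to 88.6 (-1.07, limma adjusted p=0.0014), whereas GATA2 rose. GATA3 in knockdown had 99.9, 55.7 and 85.2 normalised counts in shControl against 22.2, 12.8 and 49.1 in GALNT7 KD, and missed the threshold (limma adjusted p=0.083). SOX11, the closest relative of SOX4, rose in knockdown from 131 to 241 (log2 fold change 0.88, limma adjusted p=0.0099), while SOX12 rose in overexpression (0.26, limma adjusted p=0.017) where SOX4 fell, a call lost without OE control replicate 1 or 2 (adjusted p up to 0.055) and with the libraries rescaled to their 75th percentile. SOX8, a relative of SOX9, went in knockdown from 10.04 to 0.678 normalised counts (limma adjusted p=0.024), a change between very low levels. It reached the minimum mean for a test only through its shControl values, and without any shControl library it was not tested. The call was lost without GALNT7 KD replicate 1 (limma adjusted p=0.063), with a replicate block and with DESeq2. Of the 6 other MAF family genes none passed in knockdown, where MAF rose and 9.06% of all genes tested passed. The small MAF proteins MAFK and MAFF, partners of NRF2 and AP-1 factors, fell in overexpression by 0.98 and 0.72 on the log2 scale (limma adjusted p=0.0027 and 5.5e-04). The MITF relatives TFEB and TFE3, regulators of lysosome formation, passed in neither comparison.

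**Figure D5:**
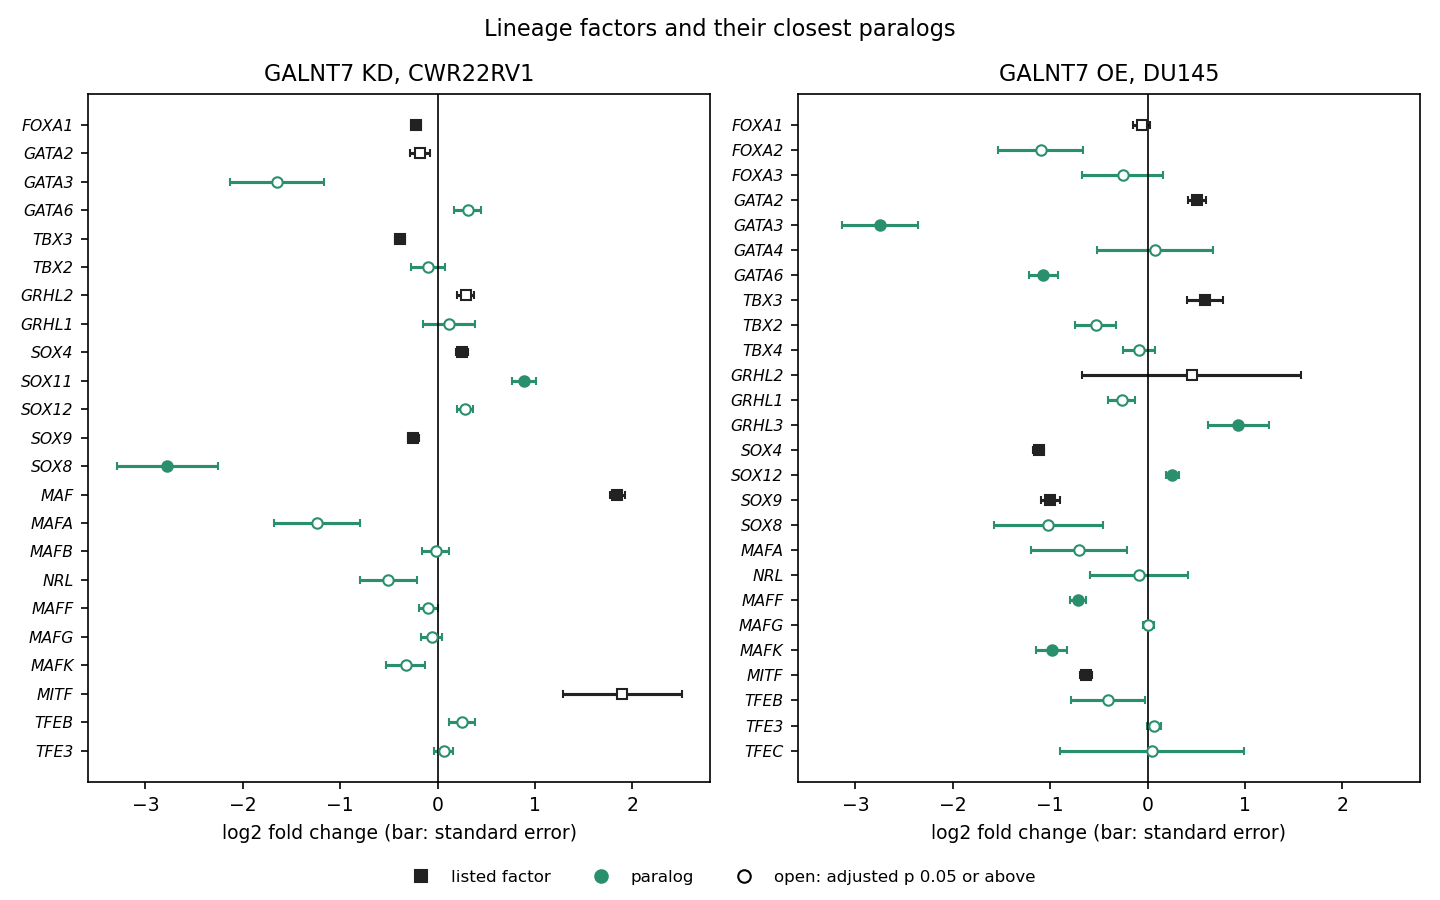
Log2 fold changes with their standard errors are drawn for the tested members (black squares) and their paralogs (green circles), with knockdown on the left and overexpression on the right; open symbols did not pass an adjusted p of 0.05. GATA2 lies at 0.51 in overexpression while GATA3 and GATA6 lie at -2.74 and -1.07. No MAF relative passed in knockdown, where 9.06% of all genes tested passed.

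Of 12 further factors of luminal identity, 11 were tested in knockdown and 1 passed, beside 9.06% of all genes tested. In overexpression 8 were tested and 5 passed, all lower, beside 43.5% of all genes tested. Besides GATA3, ELF3, an epithelial ETS factor, fell from 3824 to 923 normalised counts (log2 fold change -2.05, limma adjusted p=1.8e-06). CREB3L4 fell by 0.44 on the log2 scale (limma adjusted p=0.014). XBP1, a factor of the secretory pathway, fell by 0.18 (limma adjusted p=0.019). That call was lost without any 1 of the OE control libraries (limma adjusted p up to 0.061), with a replicate block and with chromosomes centred. HOXB13, a homeobox factor of the prostate, did not pass in knockdown (log2 fold change -0.081, limma adjusted p=0.32).

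Of 7 prostate genes known to be bound by FOXA1 and GATA2, 4 were higher and 1 lower past the threshold in knockdown. The shares of all genes tested there were 5.28% higher and 3.79% lower. KLK3, which encodes prostate-specific antigen, rose from 392 to 808 normalised counts (log2 fold change 1.05, limma adjusted p=0.0037) and KLK2 from 959 to 1335 (0.47, limma adjusted p=0.021). The KLK2 call was lost without GALNT7 KD replicate 1 or any shControl library (adjusted p up to 0.070). TMPRSS2, a membrane protease, fell from 261 to 90.6 (-1.52, limma adjusted p=0.0074). FKBP5, a chaperone of steroid receptors, rose slightly in knockdown (log2 fold change 0.25, limma adjusted p=0.014). That call was lost without shControl replicate 1 or 3 or GALNT7 KD replicate 1 (adjusted p up to 0.066). In DU145 cells FKBP5 rose slightly too (log2 fold change 0.24, limma adjusted p=0.011), a call lost after rescaling to the 75th percentile. STEAP4, a metalloreductase, fell by 1.51 on the log2 scale (limma adjusted p=4.6e-04), and SLC45A3, a solute carrier of the prostate, by 0.73 (limma adjusted p=0.0029).

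Among 20 plasticity factors, 9 were tested in knockdown, where SNAI2, a repressor of E-cadherin, rose from 1340 to 1810 normalised counts (log2 fold change 0.43, limma adjusted p=0.013) and POU3F2, a neural factor, fell from 23.9 to 10.3 (-1.13, limma adjusted p=0.049). The SNAI2 call was lost without shControl replicate 1 or 3 or GALNT7 KD replicate 1 (adjusted p up to 0.061), and that of POU3F2 with any 1 of the 6 left out (adjusted p up to 0.15). Over all genes tested, 9.06% passed in knockdown and 43.5% in overexpression. In overexpression 11 of the factors were tested, and 1 rose and 4 fell. FOSL1, an AP-1 subunit, rose from 1681 to 3076 (0.87, limma adjusted p=8.4e-05). SNAI2 fell from 53.4 to 22.3 (-1.31, limma adjusted p=0.014), ZEB2 by 0.89 (limma adjusted p=0.0052) and KLF4 by 0.84 (limma adjusted p=7.4e-04). The remaining call, ONECUT2, was lost with any of the 6 libraries left out (limma adjusted p=0.043 with all). The neuroendocrine factors NEUROD1 and INSM1 had at most 1.07 normalised counts in any library, SOX2 at most 1.83 and MYCN was at 0 throughout.

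Genes known to lie downstream of the remaining members are listed next, where 9.06% of all genes tested passed in knockdown and 43.5% in overexpression. All 5 SOX4 targets were tested, and 1 rose in knockdown, while 2 rose and 1 fell in overexpression. TUBB3, a neuronal tubulin, rose in knockdown (log2 fold change 0.96, limma adjusted p=0.0022), where SOX4 rose. It also rose in overexpression (0.82, limma adjusted p=7.6e-05), where SOX4 fell. EZH2, a histone methyltransferase of the Polycomb system, rose there as well (0.91, limma adjusted p=1.6e-04). SEMA3C, a secreted guidance factor, fell in overexpression (-0.44, limma adjusted p=5.9e-04). Of 3 genes repressed by TBX3, only the cell cycle inhibitor CDKN1A passed in knockdown. CDKN1A was higher in both comparisons (0.53 and 0.55, limma adjusted p=0.0059 and 7.1e-04). CDKN2A rose in overexpression (0.37, limma adjusted p=0.0022), and CDH1, which encodes E-cadherin, fell there (-0.58, limma adjusted p=0.0092). Of 6 cartilage genes under SOX9 control, 2 were tested in each comparison, and none passed in knockdown. COL11A2, a cartilage collagen gene, fell in overexpression (limma adjusted p=1.6e-04), with 39.1, 38.9 and 43.3 normalised counts in OE control and 0, 0 and 1.05 in GALNT7 OE.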

How the data were processed

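Polyadenylated RNA was sequenced from 12 libraries, 3 for each of shControl, GALNT7 KD, OE control and GALNT7 OE. The authors deposited normalised counts per Ensembl gene, a signal equal to reads divided by a library size factor, in 1 table per cell line. Per the labels' processing notes, FastQC, Salmon, DESeq2, R 3.5.3 and hg38 were used, in roles not given, and the annotation release and the use of strand in counting are not given in the sources used here. Low values gave whole reads for 100% of values within 0.01 of a read, which set the depth, 18364512 to 24356910 reads. Each table was fitted by itself with limma 3.58.1 (R 4.3.3) on log2(normalised count + 1), with eBayes trend, for genes with a mean of at least 5, two-sided, with Benjamini-Hochberg adjustment over all genes tested. Alternatives were other pseudocounts, filters, scalings and thresholds, a replicate block, chromosome centring, edgeR 4.0.16 and DESeq2 1.42.0 on the recovered reads, and each library left out. The scripts were checked on simulated data. Gene positions and exon lengths came from GENCODE 29 on GRCh38, which holds 94.4% of the identifiers, and promoters from RefSeq on GRCh38.p14. The members and lists were chosen with earlier results of these data known, and TBX3 and MITF are among the genes the study displayed from these samples. All members are named, with at most 4 genes past the threshold per list and comparison, by absolute log2 fold change, further genes named being chosen after their values were seen. No set test was run. Columns of samples outside the series were not found. Some genes of the lists are not reported here.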

Additional observations from a re-analysis of the deposited data

How the results depend on the processing

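For the members, 268 log2 fold changes were recomputed under the alternatives. Of these, 219 kept direction and side of the threshold, 45 lost the threshold, 3 gained it and 1 changed sign, GRHL2 in overexpression at -0.14 (limma adjusted p=0.94) without OE control replicate 2 (-0.14 to 1.31 with each library left out). The calls of MAF in knockdown and of GATA2, SOX4, SOX9 and MITF in overexpression were kept under every alternative. In knockdown, 1623 genes and 5 members passed; a replicate block gave 1002 and 3, eBayes without trend 996 and 1, an adjusted p of 0.01 gave 392 and 2, DESeq2 2666 and 7, MITF and GRHL2 among them, and left-out libraries 539 to 1336 genes and 2 to 3 members. The members numbered 2 with no filter on low values, 3 after quantile normalisation and 3 with chromosomes centred. With the block, TBX3 kept its call and FOXA1, SOX4 and SOX9 lost theirs (adjusted p=0.053, 0.071 and 0.078), while MITF gained one (0.040). Numbers did not pair the samples, as the correlation of same-numbered deviations was -0.011 to 0.075. In overexpression, 8132 genes passed and 5303 at an adjusted p of 0.01, while the members stayed at 4 to 5 under all alternatives, the block included (5). Rescaling to the 75th percentile moved the share of higher calls there from 52.8% to 41.6%, with a median of all genes of -0.11 in place of -0.011. For listed genes, added after seeing the data, 9 of 16 calls in knockdown and 5 of 34 in overexpression were lost with some library left out. MITF in CWR22RV1 cells and GRHL2 and MAF in DU145 cells rest on few reads per library. The causes were not tested.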

Other observations

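The genes whose log2 values followed each member most closely over the 12 libraries were sought among 11816 genes, by Pearson's r of log2 values centred within each cell line. These are a description with no test, since the libraries share groups. SOX4 was followed by EFNB3 (r=0.996), an ephrin ligand, and CTSB (0.995), a lysosomal protease. SOX9 was followed by SMPDL3A (0.995). GATA2 was followed by DYNC2I2 (0.969) and LETM1 (0.967), TBX3 by ZNF789 (0.957) and MRPL48 (0.940), MITF by PLPP2 (0.923) and GET1 (0.918), and FOXA1 by PATZ1 (0.920) and ADGRV1 (0.906). For MAF, UBL7 (0.959) and CMBL (0.956), and for GRHL2, NDEL1 (0.878) and EEFSEC (0.827) came first. The DU145 values of MAF and GRHL2 rest on few reads, as do the CWR22RV1 values of MITF.

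The nearest annotated gene on each side of a member was mostly a non-coding RNA with few or no reads. LINC00511, 163671 bases beyond SOX9, fell in overexpression by 0.72 on the log2 scale (limma adjusted p=0.011), where SOX9 also fell, and in knockdown it was at -0.56 (limma adjusted p=0.30). NCALD, beside GRHL2, and TMED10P2, beside GATA2, did not pass in knockdown (log2 fold change 0.38 and 0.48, limma adjusted p=0.23 and 0.17) or in overexpression.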
